A study of Homo sapiens with 3 samples.

Results

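Interferon-stimulated genes are the genes that cells switch on when interferon, or viral nucleic acid sensed in the cytoplasm, signals through STAT and IRF transcription factors. The set described here was given as a list of 38 gene names, and all 38 were found among the 19225 genes of the deposited table. A gene was represented by the RefSeq transcript with the highest sum of counts over the 3 libraries. RNA came from 5637, an established human bladder cancer line labelled wild type, which was transfected with siRNA against CDCA3 (libraries siCDCA3-1 and siCDCA3-2) or with a control siRNA (library siNC). All 3 libraries came from cells given siRNA with Lipofectamine 3000, and no library of untransfected cells was analysed here. Whether siCDCA3-1 and siCDCA3-2 stand for different siRNAs or for repeated cultures is not in the labels, nor is the time after transfection, so p-values measure only the spread between these libraries, which may be technical.

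In the classical pathway, type I interferon binds the receptor chains IFNAR1 and IFNAR2, and the kinases JAK1 and TYK2 then phosphorylate STAT factors. STAT2 and IRF9 are parts of the complex ISGF3, which binds the interferon-stimulated response element in the promoters of target genes. Interferon gamma acts through a different receptor and through the gamma-activated site. Products of the target genes bind or degrade viral RNA, attach the ubiquitin-like protein ISG15 to other proteins, block virus entry or release, and attract lymphocytes. Some epithelial cells transcribe a part of this set without added interferon.

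The promoter windows of 9 members are shown first. These members are the 5 that differed most between the siCDCA3 libraries on the log scale used below, and DTX3L from the ADP-ribosylation group. The others are IRF9 and IFI44, which were higher than siNC in both siCDCA3 libraries, and ISG15, the most abundant. The windows run from 250 bases before to 50 bases after the start that RefSeq annotates on GRCh38.p14. They are written 5′ to 3′ on the strand of the gene. Capitals mark a match to the core of the interferon-stimulated response element (GAAANNGAAA, or TTTCNNTTTC where it lies on the other strand) or to the gamma-activated site (TTCNNNGAA, which reads the same on both strands). SAMD9 lies at chr7:93117930-93118229 on the minus strand, UBE2L6 at chr11:57567886-57568185 on the minus strand, PARP14 at chr3:122680589-122680888 on the plus strand, and DTX3L at chr3:122564088-122564387 on the plus strand. SAMD9L lies at chr7:93148336-93148635 and STAT2 at chr12:56360058-56360357, both on the minus strand. IRF9 lies at chr14:24161015-24161314, IFI44 at chr1:78649539-78649838 and ISG15 at chr1:1013247-1013546, all on the plus strand.
SAMD9: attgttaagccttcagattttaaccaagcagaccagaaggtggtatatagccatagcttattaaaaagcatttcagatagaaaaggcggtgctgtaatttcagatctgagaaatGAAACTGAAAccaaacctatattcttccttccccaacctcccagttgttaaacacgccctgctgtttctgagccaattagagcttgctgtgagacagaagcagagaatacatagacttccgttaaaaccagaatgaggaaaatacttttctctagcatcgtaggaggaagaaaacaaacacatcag
SAMD9L: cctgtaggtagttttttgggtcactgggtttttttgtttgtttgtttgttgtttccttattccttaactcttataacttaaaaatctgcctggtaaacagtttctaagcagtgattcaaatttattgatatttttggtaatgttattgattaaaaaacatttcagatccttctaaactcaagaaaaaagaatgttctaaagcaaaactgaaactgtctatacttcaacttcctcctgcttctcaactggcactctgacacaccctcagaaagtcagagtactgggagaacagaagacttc
UBE2L6: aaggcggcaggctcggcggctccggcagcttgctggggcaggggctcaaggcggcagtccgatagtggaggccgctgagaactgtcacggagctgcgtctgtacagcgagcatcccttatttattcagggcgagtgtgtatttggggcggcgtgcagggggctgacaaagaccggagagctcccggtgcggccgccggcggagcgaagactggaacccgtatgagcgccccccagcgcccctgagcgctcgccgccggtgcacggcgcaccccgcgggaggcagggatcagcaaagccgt
STAT2: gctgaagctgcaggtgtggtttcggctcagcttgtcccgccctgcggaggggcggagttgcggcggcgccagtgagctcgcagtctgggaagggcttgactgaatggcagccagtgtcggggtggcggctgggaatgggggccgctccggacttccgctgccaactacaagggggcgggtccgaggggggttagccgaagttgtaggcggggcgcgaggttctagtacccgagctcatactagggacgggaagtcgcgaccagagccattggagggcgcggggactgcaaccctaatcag
PARP14: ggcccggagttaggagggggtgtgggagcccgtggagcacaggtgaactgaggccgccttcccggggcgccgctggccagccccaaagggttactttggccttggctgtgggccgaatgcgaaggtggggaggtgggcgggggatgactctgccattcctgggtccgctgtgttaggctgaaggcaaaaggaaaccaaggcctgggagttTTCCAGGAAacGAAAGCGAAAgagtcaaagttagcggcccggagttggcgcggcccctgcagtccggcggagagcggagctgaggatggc
DTX3L: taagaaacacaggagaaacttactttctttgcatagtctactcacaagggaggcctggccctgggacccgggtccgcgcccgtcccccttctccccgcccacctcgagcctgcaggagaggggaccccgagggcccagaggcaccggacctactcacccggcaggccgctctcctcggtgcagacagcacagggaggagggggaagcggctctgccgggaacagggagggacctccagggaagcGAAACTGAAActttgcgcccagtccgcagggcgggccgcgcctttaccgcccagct
IRF9: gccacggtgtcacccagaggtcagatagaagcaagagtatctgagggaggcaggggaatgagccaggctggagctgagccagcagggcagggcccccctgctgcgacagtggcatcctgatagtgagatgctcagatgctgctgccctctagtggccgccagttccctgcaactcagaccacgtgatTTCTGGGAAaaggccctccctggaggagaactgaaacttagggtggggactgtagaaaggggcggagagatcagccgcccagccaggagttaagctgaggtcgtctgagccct
IFI44: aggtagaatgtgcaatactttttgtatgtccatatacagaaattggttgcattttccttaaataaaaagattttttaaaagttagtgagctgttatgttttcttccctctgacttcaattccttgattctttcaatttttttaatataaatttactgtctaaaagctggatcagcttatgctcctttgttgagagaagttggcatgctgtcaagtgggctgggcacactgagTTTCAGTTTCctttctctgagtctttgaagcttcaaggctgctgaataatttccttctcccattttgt
ISG15: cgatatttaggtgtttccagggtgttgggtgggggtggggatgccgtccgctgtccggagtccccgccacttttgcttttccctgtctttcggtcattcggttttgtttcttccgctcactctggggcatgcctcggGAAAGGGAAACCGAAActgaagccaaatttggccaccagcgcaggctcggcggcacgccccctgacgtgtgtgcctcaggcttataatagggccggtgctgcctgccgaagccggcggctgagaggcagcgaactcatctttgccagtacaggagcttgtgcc

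The SAMD9 window held a match to the response element core 136 to 127 bases before the start, and the 2 matches of ISG15 overlapped between 113 and 98 bases before it. PARP14 held a response element core from 29 to 20 bases before the start, next to a gamma-activated site from 40 to 32 bases before it. IRF9 held a gamma-activated site and no response element core, and both windows listed for UBE2L6 and the windows of STAT2 and SAMD9L held neither. The match in the DTX3L window, at chr3:122564332-122564341, is the same genomic sequence as the match in the second window of its neighbour PARP9, which is transcribed the other way. Promoter windows were listed for 32 members, and 21 of those members held the response element core in at least 1 window, and 9 held the gamma-activated site. By window, 25 of 43 held the core (58.1%), against 3.57% of all 35116 windows. For the gamma-activated site it was 10 of 43 (23.3%), against 7.66% of all windows. The windows of IFI44 overlap each other and hold the same match, and so do those of IFI27, so windows are not all separate sequences. The members were listed as interferon-stimulated genes, so these shares are not a result of the libraries. Matches to both motifs overlapped in windows of MX1, BST2, IFI27 and EPSTI1. A match is a description of these letters and does not show that a factor binds there.

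**Figure D1:**
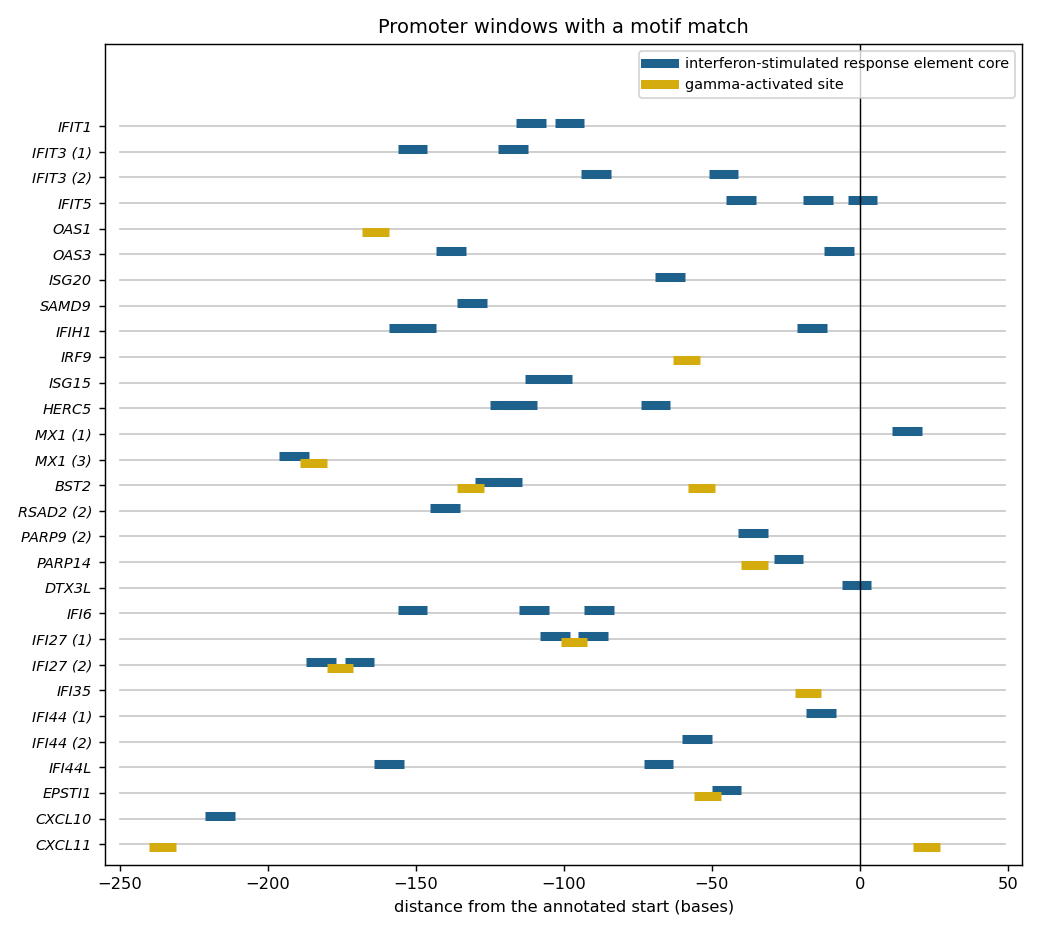
Matches to the interferon-stimulated response element core (blue) and the gamma-activated site (yellow) in the promoter windows of the members, drawn by distance in bases from the annotated start (0). Each row is a window with at least 1 match, a number in brackets tells several starts of a gene apart, and grey lines span the window. Most of the matches lie before the start.

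Depth was high. The libraries held 40420563 (siCDCA3-1), 62389922 (siCDCA3-2) and 50912733 (siNC) counts at the gene level. CDCA3, the targeted gene, had an RPKM (counts scaled by transcript length and by the total of the library) of 0.574 in siCDCA3-1 and 1.40 in siCDCA3-2, against 5.52 in siNC. The markers were those of an epithelial line: the highest of 18 epithelial and bladder cell markers was KRT19, with RPKM of 822, 643 and 972 in siCDCA3-1, siCDCA3-2 and siNC, and EPCAM had 17.4, 45.4 and 27.0. KRT17, a basal keratin, was the epithelial marker 2-fold lower in both siCDCA3 libraries, with 210.1 and 137.7, against 429.1 in siNC (edgeR adjusted p = 0.9997). Among the urothelial plaque genes on the list, UPK1A, UPK1B and UPK3A were at 8 counts or fewer in each library. The value of UPK2, which is also on the list, is not given here. Of 13 leukocyte markers, 12 were under an RPKM of 1 in every library, with PTPRC at 0, 10 and 1 counts in siCDCA3-1, siCDCA3-2 and siNC. The sum over these leukocyte markers was an RPKM of 2.84, 1.52 and 2.07 in the same order, most of it from CD68 and CD14. Of 10 fibroblast and endothelial markers, 8 were under an RPKM of 1 in every library, and COL1A1 had 8.33, 2.26 and 6.96. The sum over the fibroblast and endothelial markers was 10.14 in siCDCA3-1 and 2.44 in siCDCA3-2, most of it from COL1A1. All marker sums were lower in siCDCA3-2 than in siCDCA3-1, the epithelial sum included (1825 against 2233). By gene, 5 leukocyte markers were higher and 8 lower in siCDCA3-1 than in siCDCA3-2. For the fibroblast and endothelial markers these counts were 6 and 4, and for the epithelial markers 12 and 6. Several members below were also lower in siCDCA3-2, and the part of the markers in those results was not tested. In bulk RNA, fewer cells with a transcript and less of it per cell cannot be told apart.

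Many members were expressed at a low level, as were many genes of the whole table. An RPKM under 1 was found for 15 of the 38 members in siCDCA3-1, 18 in siCDCA3-2 and 20 in siNC. Over all 19225 genes the counts were 9278, 9137 and 9166 in the same order. Of the 38, 14 stayed under 1 in every library, 18 reached at least 1 in every library, and 6 lay on both sides. Over all genes these counts were 8583, 9394 and 1248. Averaged over the libraries, 20 members reached an RPKM of 1, the condition for entering the edgeR test. That test is a quasi-likelihood test on counts, siCDCA3 (n = 2) over siNC (n = 1), with Benjamini-Hochberg adjustment over all 10153 genes. None of the 20 passed an adjusted p of 0.05 (lowest unadjusted p 0.07444, every adjusted p 0.9997), and 0 had an unadjusted p under 0.05, beside 1.32% of all genes tested. Over all genes tested the same test called 0 higher (0%) and 3 lower (0.0295%), and DESeq2 and limma each called 0 of the 20. The lone siNC library is taken to be as variable as those of the siCDCA3 group. The standard errors of the 20 log2 fold changes ran between 0.48 (ISG15) and 0.83 (UBE2L6). CDCA3, the targeted gene, was not called either, with a log2 fold change of -2.50 and a standard error of 0.67. The absence of a call therefore does not show that a member was unchanged.

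**Figure D2:**
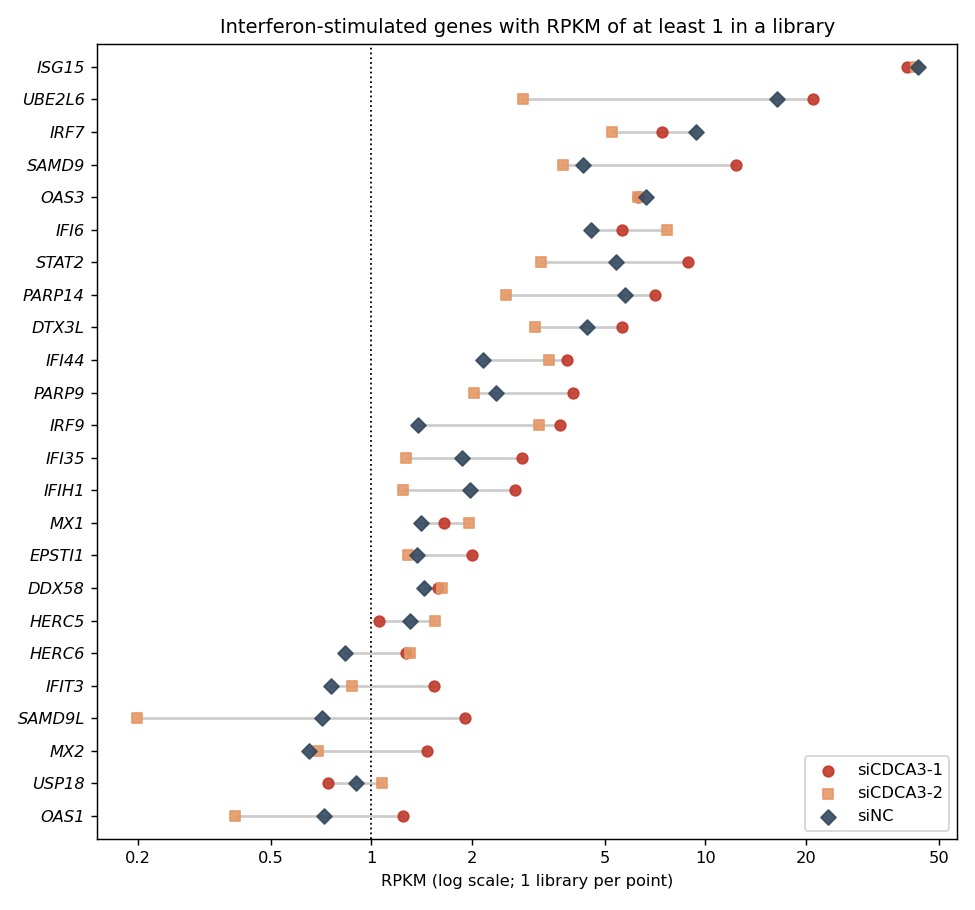
RPKM on a log axis of the 24 members with an RPKM of at least 1 in at least 1 library; each point is 1 library (circle siCDCA3-1, square siCDCA3-2, diamond siNC) and grey lines join the 3 values of a gene. ISG15 is highest and nearly equal in the 3 libraries, while UBE2L6, SAMD9 and SAMD9L spread most widely.

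The libraries did not move the set in 1 direction. Differences are in log2(RPKM + 1), and a difference of 1 in size is called 2-fold here. Of the 20 members with a mean RPKM of at least 1, 16 were higher and 4 lower in siCDCA3-1 than in siNC, beside 41.4% and 58.6% of all genes tested. In siCDCA3-2, 8 were higher and 12 lower than in siNC, beside 54.4% and 45.6% of all genes tested. Their median difference was 0.31 in siCDCA3-1 and -0.06 in siCDCA3-2, against medians of -0.07 and 0.05 over all genes tested. Differences of 2-fold were rare. In siCDCA3-1, SAMD9 was 2-fold higher (1 of 20, beside 0.847% of all genes tested) and 0 were 2-fold lower (1.74%), with 2.59% of all genes 2-fold apart either way. In siCDCA3-2, UBE2L6 was 2-fold lower (1 of 20, beside 3.27%) and 0 were 2-fold higher (1.42%), with 4.69% of all genes 2-fold apart either way. In both libraries at once, 0 members were 2-fold higher (0.0985% of all genes tested) and 0 were 2-fold lower (0.719%). The count for higher genes depends on the pseudocount of 1: with a pseudocount of 0.1, IRF9 was past 2-fold in both, with differences of 1.351 in siCDCA3-1 and 1.145 in siCDCA3-2. Between these 2 libraries, 7 of the 20 members were higher than siNC in both (23.6% of all genes tested), 3 were lower in both (27.8%), 9 were higher in siCDCA3-1 and lower in siCDCA3-2 (17.8%), and 1 went the opposite way (30.8%). Both comparisons share siNC, so these joint counts are not independent of it. IFIT3 and HERC6, counted among the 7, were under an RPKM of 1 in siNC and reached the mean of 1 through their siCDCA3 values. The counts over the 20 thus depend partly on that condition. Over all 38 members, 26 were higher and 12 lower in siCDCA3-1 than in siNC, and 17 and 21 in siCDCA3-2. Over all 19225 genes these counts were 8122 and 9515 in siCDCA3-1, and 11587 and 7085 in siCDCA3-2.

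The clearest contrast lay within the siCDCA3 group. In log2(RPKM + 1), UBE2L6, SAMD9, SAMD9L, STAT2 and PARP14 were at least 2-fold higher in siCDCA3-1 than in siCDCA3-2, and 0 members were 2-fold lower. Of the 20 members tested that is 4, beside 3.72% of all genes tested, since SAMD9L had a mean RPKM under 1; 2-fold lower were 0 of 20, beside 4.9%, and 8.63% of all genes were 2-fold apart either way. The pseudocount of 1 shrinks the differences of low genes, so these counts miss some members. By the ratio of RPKM, IFIT1 (0.405) and CMPK2 (0.277) were more than 2-fold lower in siCDCA3-1 than in siCDCA3-2. Further members were more than 2-fold higher by that ratio, among them OAS1 (3.19) and IFIH1 (2.16). At any size 13 of the 20 were higher and 7 lower in siCDCA3-1 than in siCDCA3-2, beside 42.2% and 57.8%. This spread enters the error of the edgeR test and no test of it is possible with 1 library on each side. Ratios below carry exact 95% binomial intervals, which cover counting error only.

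UBE2L6 encodes the conjugating enzyme that hands ISG15 to its ligases (NM_004223.4; gene at chr11:57551662-57567935). It had an RPKM of 21.0 in siCDCA3-1 and 2.85 in siCDCA3-2, against 16.4 in siNC, from 2752, 578 and 2705 counts. Its low value is thus in siCDCA3-2, while siCDCA3-1 lay slightly above siNC. The ratio to siNC was 1.27 (1.21 to 1.34) in siCDCA3-1 and 0.174 (0.158 to 0.190) in siCDCA3-2, so siCDCA3-1 stood 7.34-fold above siCDCA3-2 (6.71 to 8.05). The edgeR log2 fold change of the group was -0.40 with a standard error of 0.83 (adjusted p = 0.9997), and without siCDCA3-2 it was 0.431. ISG15 itself, the modifier, was the most abundant member (NM_005101.3; gene at chr1:1013497-1014540). Its RPKM was 40.3 in siCDCA3-1 and 42.8 in siCDCA3-2, against 43.5 in siNC, and its ratio to siNC was 0.927 (0.883 to 0.974) and 0.984 (0.942 to 1.03). It supplied 27.1%, 42% and 35.4% of the summed RPKM of all members in siCDCA3-1, siCDCA3-2 and siNC.

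The ligases and the protease of the ISG15 system were low and close together. HERC5, the main ISG15 ligase of human cells, had an RPKM of 1.05 and 1.55 in siCDCA3-1 and siCDCA3-2, against 1.31 in siNC. HERC6, its neighbour, which is the main ISG15 ligase of mice, had 1.27 and 1.31, against 0.834 in siNC. USP18, which removes ISG15 and dampens the interferon receptor, had 0.740 and 1.08, against 0.899 in siNC, and may share reads with its near-identical copy USP41. For HERC5 and USP18 the siNC value lay between those of the siCDCA3 libraries, and for HERC6 both siCDCA3 values lay above it.

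SAMD9 and SAMD9L are neighbouring genes on chromosome 7, 12.1 kb apart, whose proteins restrict translation and poxvirus growth. SAMD9 (NM_017654.3; chr7:93099518-93117979) had an RPKM of 12.3 in siCDCA3-1 and 3.74 in siCDCA3-2, against 4.30 in siNC. Here siCDCA3-1 stood apart, at 2.87 times siNC (2.76 to 2.98), while siCDCA3-2 was at 0.870 (0.833 to 0.910). Over the group, edgeR gave a log2 fold change of 0.95 (standard error 0.68, adjusted p = 0.9997), and without siCDCA3-1 it was -0.26. SAMD9L (NM_152703.3; chr7:93130056-93148385) had an RPKM of 1.90 and 0.198, against 0.714 in siNC, that is 2.67 times siNC (2.43 to 2.93) in siCDCA3-1 and 0.278 (0.238 to 0.324) in siCDCA3-2. Its siNC value thus lay between the siCDCA3 libraries, which differed 9.59-fold (8.34 to 11.1), and the 5 transcripts listed for it gave nearly the same values.

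Among the factors that carry the signal, STAT2 and IRF9 differed in pattern although they act in the same complex. STAT2 (NM_005419.3; chr12:56341597-56360107) had an RPKM of 8.90 in siCDCA3-1 and 3.23 in siCDCA3-2, against 5.41 in siNC, a ratio of 1.65 (1.57 to 1.72) and 0.597 (0.566 to 0.630). IRF9 (NM_006084.4; chr14:24161265-24166565) had 3.69 and 3.18, against 1.38 in siNC, from 644, 858 and 303 counts. IRF9 was therefore higher in both siCDCA3 libraries, at 2.66 times siNC (2.32 to 3.06) in siCDCA3-1 and 2.30 times (2.02 to 2.63) in siCDCA3-2. It had the lowest p of the members, with an edgeR log2 fold change of 1.33, a standard error of 0.68 and an adjusted p of 0.9997. In GENCODE 29, 48.4% of the annotated exon bases of IRF9 are shared with a longer gene model on the same strand, so its reads cannot be assigned with certainty. IRF7, which drives transcription of interferon alpha genes, had 7.40 and 5.28, against 9.38 in siNC (NM_001572.3).

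The RNA sensors were present at low level. IFIH1, which encodes MDA5, a sensor of long double-stranded RNA, had an RPKM of 2.69 in siCDCA3-1 and 1.25 in siCDCA3-2, against 1.97 in siNC. DDX58, which encodes RIG-I, a sensor of RNA ends, had 1.59 and 1.63, against 1.44 in siNC. DDX58 thus stayed within 1.13 times siNC in both, and for IFIH1 the siNC value lay between the siCDCA3 libraries.

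PARP9, DTX3L and PARP14 lie together on chromosome 3, with PARP9 and DTX3L head to head. PARP9 and DTX3L form a complex that joins ADP-ribosylation to ubiquitin transfer, and PARP14 adds single ADP-ribose units to proteins. PARP9 had an RPKM of 4.02 in siCDCA3-1 and 2.04 in siCDCA3-2, against 2.37 in siNC. DTX3L had 5.62 and 3.09, against 4.43 in siNC. PARP14 had 7.08 and 2.54, against 5.76 in siNC. All 3 were higher in siCDCA3-1 and lower in siCDCA3-2 than in siNC. For PARP14 the ratio to siNC was 1.23 (1.19 to 1.28) in siCDCA3-1 and 0.441 (0.422 to 0.460) in siCDCA3-2, and the edgeR log2 fold change of -0.21 (standard error 0.61, adjusted p = 0.9997) became 0.38 without siCDCA3-2. The annotated exons of PARP9 and DTX3L share 217 bases on opposite strands, which counting without strand could not separate.

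**Figure D3:**
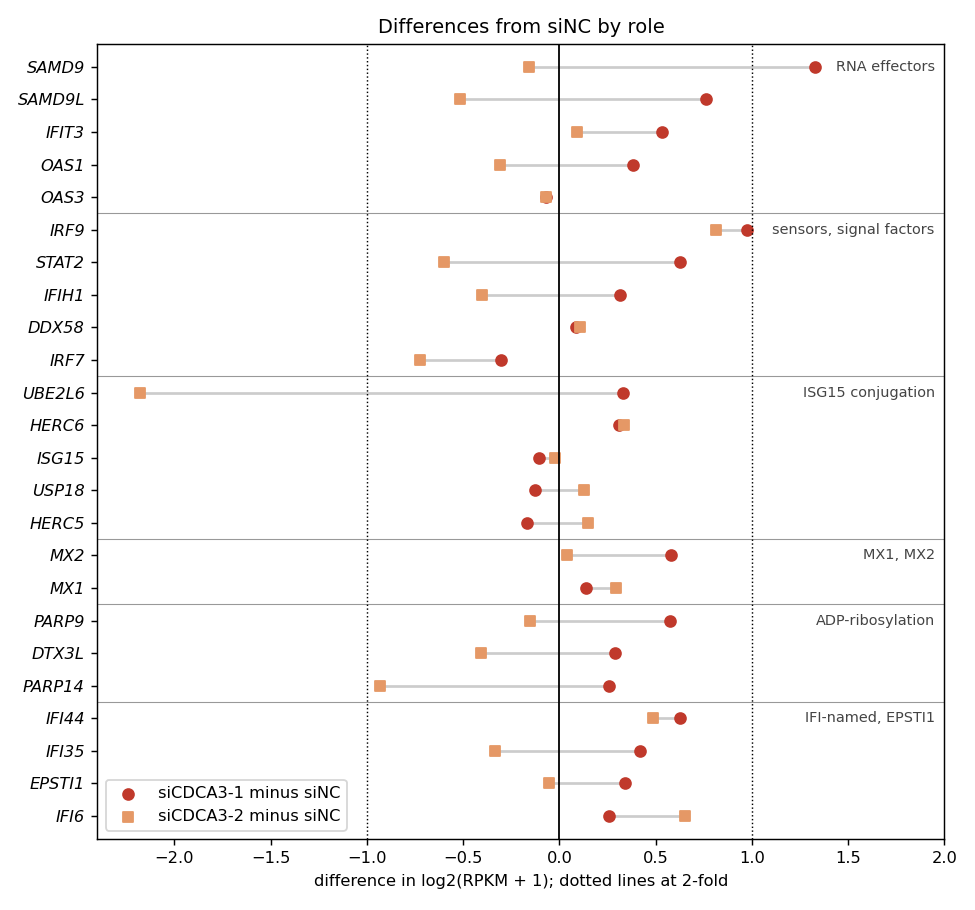
Difference in log2(RPKM + 1) of the 24 members with an RPKM of at least 1 in at least 1 library, grouped by role (circle siCDCA3-1 minus siNC, square siCDCA3-2 minus siNC, dotted lines at 2-fold). SAMD9 (1.33) and UBE2L6 (-2.18) lie beyond the dotted lines in 1 library each, and IRF9 and IFI44 lie to the right in both.

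Among effectors that bind or cut RNA, OAS3 was the steadiest. The OAS enzymes make the oligoadenylates that activate RNase L, and OAS3 (NM_006187.3) had an RPKM of 6.28 in each siCDCA3 library, against 6.65 in siNC. OAS1, which lies 5.3 kb from it, had 1.25 in siCDCA3-1 and 0.390 in siCDCA3-2, against 0.720 in siNC. OAS2, on the other side of OAS3, and OASL, an inactive relative, were under an RPKM of 0.1 in every library. The OAS cluster thus held a gene at a nearly equal level in the libraries beside a gene whose siCDCA3 libraries differed 3.19-fold (2.54 to 4.03). ISG20, an RNA exonuclease, had an RPKM of 0.637 and 0.394, against 0.745 in siNC, and its 6 transcripts reached up to 1.31, 0.792 and 1.52 in siCDCA3-1, siCDCA3-2 and siNC.

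The IFIT genes encode proteins that bind foreign RNA ends, and lie in a cluster on chromosome 10. IFIT3 had an RPKM of 1.54 in siCDCA3-1 and 0.876 in siCDCA3-2, against 0.759 in siNC. IFIT5 had 0.645 and 0.816, against 0.699 in siNC, and IFIT2 had 0.484 and 0.130, against 0.270 in siNC. IFIT1 was at 47 and 179 counts, against 16 in siNC, an RPKM of 0.101 and 0.249 against 0.0274. IFIT1, among the most strongly interferon-induced genes in many cells, was thus higher in both siCDCA3 libraries, yet stayed far below an RPKM of 1. Its ratio to siNC was 3.68 (2.05 to 6.95) in siCDCA3-1 and 9.09 (5.44 to 16.2) in siCDCA3-2, and its mean RPKM kept it out of the edgeR test.

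Of the 5 genes grouped here as dynamin-like, membrane or nucleotide-directed restriction factors, the MX pair reached an RPKM of 1 in a library and the other 3 did not. MX1, a dynamin-like protein active against influenza viruses, had 1.65 in siCDCA3-1 and 1.96 in siCDCA3-2, against 1.41 in siNC. MX2, which lies 11.2 kb away and blocks nuclear entry of HIV, had 1.47 and 0.694, against 0.650 in siNC. BST2 (tetherin, which holds virions on the cell surface) was at 38 and 9 counts, against 10 in siNC. Its RPKM was thus 0.358 at most, in siCDCA3-1. RSAD2 (viperin, which makes a chain-terminating nucleotide) and its head-to-head neighbour CMPK2, a mitochondrial nucleotide kinase, were also under an RPKM of 1 in every library.

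Among the IFI-named genes, IFI44, IFI6 and IFI27 were higher than siNC in both siCDCA3 libraries. IFI44, a cytoplasmic protein, had an RPKM of 3.86 in siCDCA3-1 and 3.41 in siCDCA3-2, against 2.15 in siNC, a ratio of 1.79 (1.59 to 2.02) and 1.58 (1.42 to 1.77). IFI6, an endoplasmic reticulum protein that blocks flavivirus replication, had 5.62 and 7.69, against 4.54 in siNC. Neither passed the edgeR test, with log2 fold changes of 0.77 (standard error 0.65) and 0.55 (standard error 0.65), both at an adjusted p of 0.9997. IFI27, a mitochondrial protein named after its values were seen, was at 16 and 27 counts against 2 in siNC, a ratio of 10.0 (2.36 to 89.8) and 10.96 (2.76 to 95.1) at an RPKM of at most 0.237, and was not tested. IFI35 had 2.83 and 1.28, against 1.86 in siNC, and EPSTI1 had 2.00 and 1.29, against 1.37 in siNC. For IFI35 the siNC value lay between the siCDCA3 libraries. Named for its count of 0, and so chosen after its values were seen, XAF1, which antagonises the caspase inhibitor XIAP, was at 5 and 0 counts against 11 in siNC, and a count of 0 allows an RPKM of up to 0.00515 in siCDCA3-2 by counting error.

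The chemokines CXCL10 and CXCL11, which attract T cells through the receptor CXCR3, were nearly silent. CXCL10 was at 17 counts in siCDCA3-1 and 3 in siCDCA3-2, against 47 in siNC, an RPKM of 0.134 and 0.0154 against 0.296. CXCL11, chosen after its values were seen for the same reason as XAF1, was at 1 and 0 counts, against 4 in siNC. The siNC library was highest for both. The ratio of CXCL10 to siNC in siCDCA3-2 was 0.0518, with a counting interval of 0.0103 to 0.161. For CXCL11 the intervals were 0.00636 to 3.16 in siCDCA3-1 and 0 to 1.23 in siCDCA3-2, and both include 1.

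The 8 lowest members, OAS2, OASL, RSAD2, CMPK2, IFI27, IFI44L, XAF1 and CXCL11, had at most an RPKM of 0.237 (IFI27 in siCDCA3-2) and at most 104 counts (IFI44L in siCDCA3-2) in any library. Reads were listed for 90 transcripts of the members, and 21 members had more than 1 transcript. For a single member, OAS2 in siCDCA3-2, the transcripts lay on both sides of siNC. Transcripts of a gene share reads and 17 members had only 1, so agreement elsewhere is a weak check on the choice of transcript.

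The rest of the interferon pathway was described by 6 lists of 97 genes, all measured and 69 of them with a mean RPKM of at least 1. None of the 69 passed the edgeR test over all genes (0 at an adjusted p of 0.05, 1 at an unadjusted p under 0.05, where all genes tested gave 1.32%). Ligands were all but absent: of 12 interferon genes every one was under an RPKM of 1, and the highest were IFNE (14, 9 and 6 counts in siCDCA3-1, siCDCA3-2 and siNC), IFNL3 (2, 2 and 0) and IFNL1 (1, 5 and 0). IFNB1 was at 0, 4 and 0 counts in the same order. IFNL2 and IFNL3 are near-identical and may share reads.

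Receptors and their kinases had an RPKM of at least 1 in all libraries, except JAK2. That kinase had 0.478 in siCDCA3-1 and 0.689 in siCDCA3-2, against 0.579 in siNC. Of 12 receptor and signalling genes at this level, 5 were higher in siCDCA3-1 and 3 in siCDCA3-2 than in siNC, beside 41.4% and 54.4% of all genes tested, with medians of -0.03 and -0.52. The first count is near the share over all genes. IFNGR1, a chain of the interferon gamma receptor, had an RPKM of 14.8 in siCDCA3-1 and 15.5 in siCDCA3-2, against 31.4 in siNC, and an edgeR log2 fold change of -1.04 (unadjusted p = 0.04402, adjusted p = 0.9997). The ratio of IFNGR1 to siNC was 0.473 in siCDCA3-1 and 0.494 in siCDCA3-2. With the pseudocount of 1 its differences were -1.03 and -0.97, the second short of 2-fold. Its partner chain IFNGR2 had 19.3 and 13.9, against 23.6 in siNC, and STAT3 had 38.9 and 21.4, against 32.2 in siNC. Chosen after their values were seen, IRF1, an interferon gamma target, had 21.4 and 5.56, against 23.8 in siNC, and the receptor chain IFNAR1 had 6.44 and 7.54, against 5.60.

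Sensing and double-stranded RNA genes were close to siNC. The median difference of the 9 sensing genes at this level was -0.14 for siCDCA3-1 and -0.11 for siCDCA3-2, with 0 genes 2-fold away from siNC in either library. IRF3, the factor that sensors activate, had an RPKM of 19.0 and 17.0, against 24.0 in siNC, TRIM25, which ubiquitinates in the RIG-I pathway, had 19.3 and 16.5, against 15.5, and the adaptor MAVS had 12.7 and 9.75, against 10.6. The 8 double-stranded RNA genes had medians of 0.16 and 0.23, and again 0 were 2-fold away. The editing enzyme ADAR had 35.9 and 25.5, against 27.4 in siNC, and the helicase DHX9 had 25.1 and 36.1, against 22.0. The list drawn up for feedback inhibitors had medians of 0.02 and -0.12 over 9 genes. PTPN1 had 18.1 and 15.9, against 15.9 in siNC, and PTPN2 had 8.92 and 8.02, against 8.80. ISG20L2 had 6.98 and 10.4, against 11.8. It is counted in these medians although it is not an established feedback inhibitor. SOCS1, a suppressor of cytokine signalling chosen after its values were seen, had 4.52 and 1.15, against 7.50 in siNC. NLRC5, chosen in the same way, had 2.71 and 0.846, against 0.863 in siNC. Of the 9 genes, 5 were higher in siCDCA3-1 and 1 in siCDCA3-2 than in siNC, beside 41.4% and 54.4% of all genes tested.

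Further interferon-induced genes outside the 38 were mostly lower in siCDCA3-2 than in siCDCA3-1 (22 of 31 at this level, beside 42.2% of all genes tested higher in siCDCA3-1). Of these 31, 22 were higher in siCDCA3-1 than in siNC and 9 in siCDCA3-2, beside 41.4% and 54.4%, with medians of 0.17 and -0.48. At 2-fold, 2 were higher in siCDCA3-1 (0.847% of all genes tested) and 6 lower in siCDCA3-2 (3.27%). Between these libraries, 8 were 2-fold higher (3.72%) and 1 was 2-fold lower (4.9%) in siCDCA3-1 than in siCDCA3-2. The most abundant were LGALS3BP (102 and 54.1, against 75.9 in siNC), LY6E (91.1 and 55.5, against 82.4) and IFITM3 (73.1 and 39.3, against 70.1), the last of which may share reads with IFITM2. Chosen after their values were seen, the guanylate-binding protein genes GBP1 and GBP2 had 10.6 and 0.565, against 3.38 in siNC, and 12.6 and 0.545, against 5.50. PSMB9, an immunoproteasome subunit, and the peptide transporter TAP1 were chosen in the same way, with 16.7 and 3.39, against 14.8 in siNC, and 16.2 and 7.60, against 17.0. In the opposite order, and likewise picked by their values, the mitochondrial RNA exonuclease PNPT1 had 2.47 and 7.34, against 3.32 in siNC, and NT5C3A, a nucleotidase, had 2.92 and 6.61, against 4.67. None passed the edgeR test (adjusted p = 0.9997 for each).

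**Figure D4:**
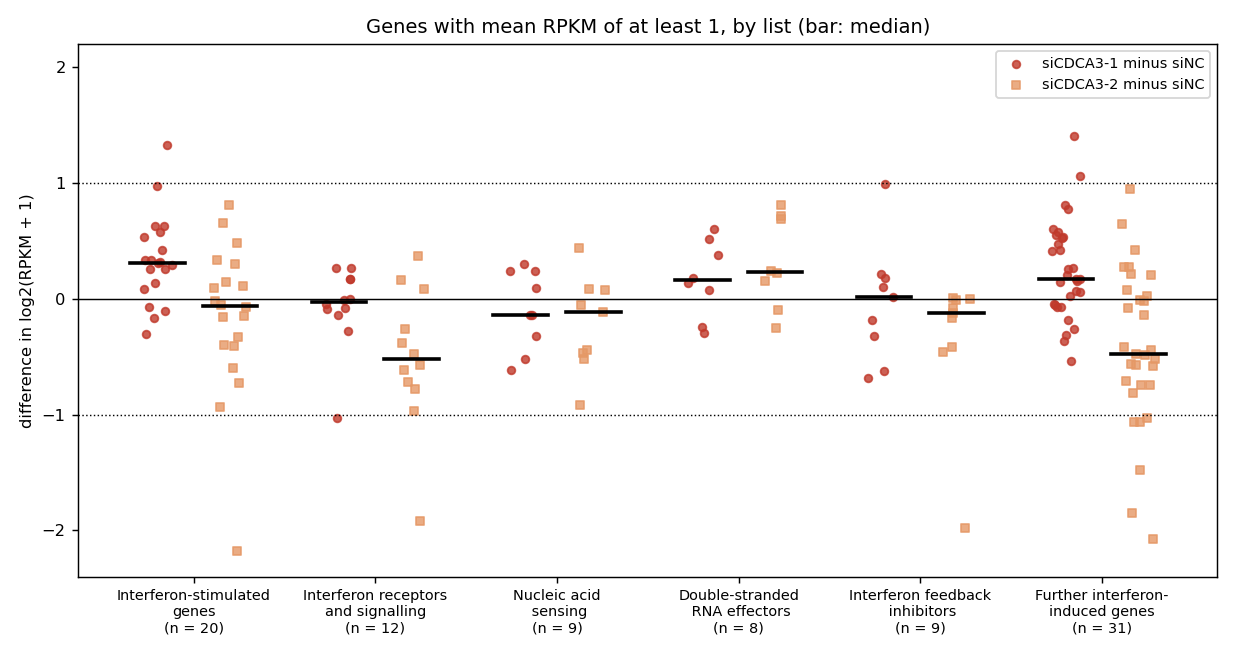
Difference in log2(RPKM + 1) from siNC of every gene with a mean RPKM of at least 1, for the members and 5 pathway lists (circle siCDCA3-1, square siCDCA3-2); black bars are medians and dotted lines mark 2-fold. The members' medians are 0.31 and -0.06, and the further interferon-induced genes have the widest gap, 0.17 against -0.48; the ligand list has no gene at this level.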

How the data were processed

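Per the file headers, the deposited table holds read counts, lengths and RPKM of RefSeq transcripts in 3 libraries. Every deposited RPKM value equalled count over length over a single total per library (130459616 for siNC). Per the submitters' processing notes, Trimmomatic 0.36, FastQC, HISAT2 and HTSeq were used, and hg38 and mm10 are listed without a role; 98.6% of the accessions matched the human RefSeq table. Per the labels' protocols, ribosomal RNA was removed and 150-base read pairs were sequenced. The strand setting of the counting was not stated there.

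One transcript stood for each of 19225 genes, since transcripts of a gene share reads; 103 symbols turned into dates by a spreadsheet program were restored by accession. The main test was edgeR 4.0.16 (R 4.3.3): TMM scaling and a quasi-likelihood fit of siCDCA3 (2 libraries) over siNC (1), two-sided, Benjamini-Hochberg adjusted over the 10153 genes averaging an RPKM of 1 or more, with a threshold of 0.05. It has 1 residual degree of freedom; standard errors were taken as the size of the log2 fold change divided by the root of F. It was also run on simulated data, drawn with less variability between libraries than the common dispersion of 0.126 estimated here. That run therefore does not show its power for these libraries. Differences per library used log2(RPKM + 1), which understates the change of low genes. DESeq2 1.42.0 and limma 3.58.1 were alternatives. Promoter windows are from RefSeq (GRCh38.p14); exon overlap is from GENCODE 29. Members with an RPKM of at least 1 in a library, and the 6 highest of the others, are named with values. From each of the 6 pathway lists the 3 highest by mean RPKM are named, plus genes 2-fold away in both libraries. In log2(RPKM + 1) those lists held 0 such genes. Marker lists are outside this rule, and markers were named after their values were seen. A gene that this rule names is not reported here. The members and lists were chosen with earlier results of these data known. Intervals cover counting error only.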

Additional observations from a re-analysis of the deposited data

How the results depend on the processing

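No member was called by edgeR, DESeq2 or limma under any of the alternatives in which it was tested, which were median-of-ratios scaling, the authors' library totals, DESeq2, limma, no filter, a mean RPKM of at least 5, and the longest transcript. Over all genes, calls higher were 0 in edgeR, 2 in DESeq2 and 4 with no filter, and calls lower were 3, against 8 in DESeq2, 18 with no filter, and 0 with the authors' library totals, with limma and at a mean RPKM of at least 5. Leaving out a siCDCA3 library leaves 1 library on each side and no test. By value only, the log2 fold change ran from -0.26 without siCDCA3-1 to 1.6 without siCDCA3-2 for SAMD9, from -2.581 to 0.431 for UBE2L6 and from -1.242 to 0.38 for PARP14, while IRF9 kept its direction (1.136 to 1.488). No paired analysis was possible because siNC is a single library with no number.

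With a pseudocount of 0.1, 2 members were 2-fold higher in siCDCA3-1, 1 was 2-fold higher in siCDCA3-2 and 2 were 2-fold lower in it; for the pathway lists 5 were 2-fold higher in siCDCA3-1 and 2 in siCDCA3-2. TMM scaling moved values against siNC by 0.082 in siCDCA3-1 and -0.06 in siCDCA3-2, and gave 2 members 2-fold higher in siCDCA3-1 and 0 pathway genes 2-fold lower in it. Without a filter 26 members were higher at any size in siCDCA3-1 and 17 in siCDCA3-2, and 38 pathway genes in siCDCA3-2. At a mean RPKM of at least 5, 5 members were higher in siCDCA3-1 and 1 in siCDCA3-2, where their median was -0.38; of the pathway genes 25 and 11 were higher, 1 was 2-fold higher in siCDCA3-1 and 4 were 2-fold lower in siCDCA3-2. The filters change how many genes are counted; the cause of the other shifts was not tested.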
